A study of Mus musculus with 20 samples.

Results

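Macrophage marker genes were followed through the RNA and chromatin data of cultured mouse embryonic fibroblasts. The 9 genes were Tyrobp, C1qa, C1qb, C1qc, Csf1r, Cd68, Cd14, Fcer1g and Laptm5, of 22593 genes listed once under a single name in all 4 RNA tables. They were chosen by their FPKM in the unnumbered RNA tables described below, where they were high in wild-type cells, as signs of macrophages. That contrast is therefore given as a description and supports nothing. Fibroblasts came from wild-type (WT) C57BL/6 mice or from Pml-null mice of the same background (KO), which lack the protein that builds PML nuclear bodies, and all were at passage 10 to 15. The deleted part of Pml was not given in the labels. RNA came from native cells, as 1 unnumbered sample per genotype and as 3 numbered replicates per genotype that the authors pooled into 1 table. For chromatin immunoprecipitation (ChIP) each genotype had 1 library of each of PML, H3K27me3, H3K9me3, total H3, H3.3 with a Flag tag and H3.3 with an HA tag, H3.3 being a histone variant. Before H3.3 ChIP the cells were transfected to express the tagged histone and reseeded, and the labels do not say for which samples siRNA was added. Cells for H3K9me3, H3K27me3 and PML were crosslinked at confluency. The title gives the question as the role of PML in heterochromatin and in placing H3.3, and the labels name no sort for or against macrophages.

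Macrophages are phagocytes of the blood lineage that settle in tissues from early development on. They depend on signals through the receptor Csf1r, whose ligands are made by fibroblasts and other stromal cells. Their identity is set by the transcription factor PU.1, encoded by Spi1. In cells of other lineages the genes of this programme are kept silent, often under H3K27me3, the mark set by Polycomb complexes.

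All RNA values are FPKM as deposited, fragments per transcript length and library size. The tables may have been normalized separately, so levels of different tables are set side by side with that limit. With 1 value per genotype in each pair of tables there was no replicate spread, no test was possible, and every difference is one between single tables. A difference is KO minus WT of log2(FPKM + 1), and a gene was compared when it reached 1 FPKM in either genotype. In bulk RNA, fewer cells of a type and less RNA per cell cannot be told apart. Depth and a limit of detection are unknown. Of 75 ribosomal protein genes, which every cell uses, 0 were listed at 0 in any table. Pml itself had 7.62 FPKM in unnumbered WT, 4.22 in unnumbered KO, 15.0 in numbered WT and 10.2 in numbered KO, so RNA of the gene was present in every table. Xist, transcribed from an inactive X, had 19.5 FPKM in numbered WT and 0.0517 in numbered KO, and Y-linked Ddx3y had 0.0384 and 7.67, so genotype and sex of the cells cannot be told apart in that pair. In the unnumbered tables Xist had 5.89 in WT and 8.25 in KO, and Ddx3y 21.7 and 11.4, so the WT tables also differ from each other in these genes.

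The 9 genes were all present in the unnumbered WT table and nearly all close to 0 in the other 3 tables. In unnumbered WT they ran from 3.51 FPKM for Laptm5 to 18.1 for Tyrobp, with a median of 11.6. All 9 reached 1 FPKM there, where 50.6% of all genes did. In unnumbered KO the range was 0 to 1.32 with a median of 0.385, and 1 of 9 reached 1 FPKM, against 49.5% of all genes. In the numbered tables the highest of the 9 was at 1.67 FPKM in WT and at 2.97 in KO. There 1 of 9 reached 1 FPKM in each genotype, against 46.0% of all genes in WT and 46.9% in KO. Summed over the 9 genes, the level was 98.4 FPKM in unnumbered WT, 4.56 in unnumbered KO, 2.77 in numbered WT and 3.94 in numbered KO. With every table rescaled to sum to 1000000, these sums were 187, 8.97, 2.87 and 9.44. The unnumbered WT table stood apart from the other 3 on either scale. The genes were chosen for their level in that table, so nothing is read from this.

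**Figure D1:**
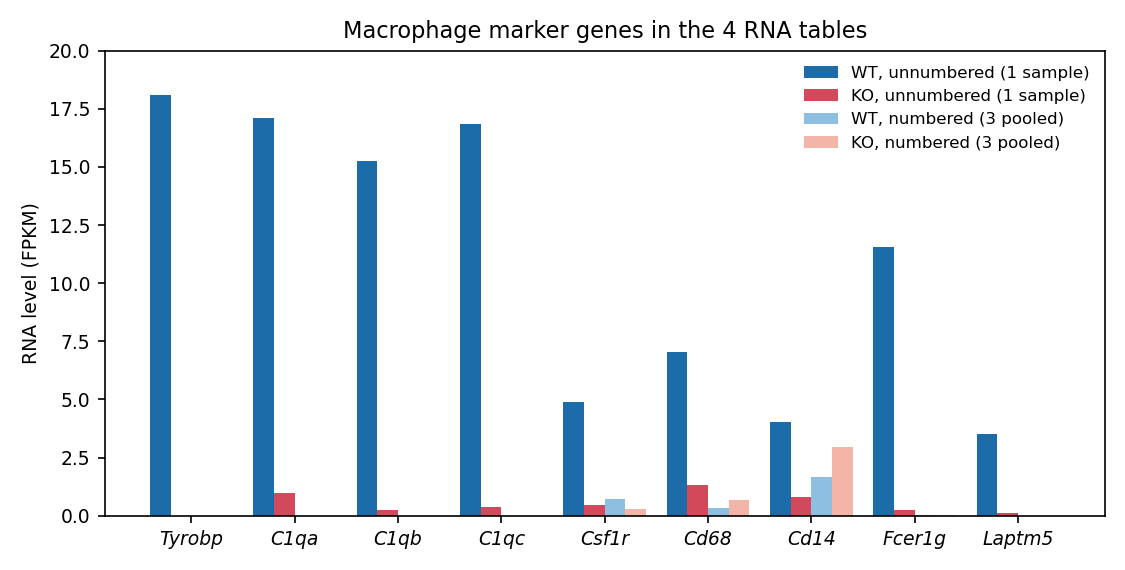
RNA level in FPKM (y axis) of the 9 marker genes (x axis), with 1 bar per table and no error bars, since each unnumbered table is 1 sample and each numbered table a pool of 3. The dark blue bars of unnumbered WT reach from 3.51 to 18.1, and the highest bar of any other table is that of Cd14 in numbered KO at 2.97.

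The 3 C1q genes encode the chains of C1q, the recognition subunit that starts the classical complement pathway, and macrophages are their main source. They lie together on mm10 chromosome 4 within 18.7 kb, C1qb at 136880126 to 136886200, C1qc at 136889801 to 136892936 and C1qa at 136895916 to 136898844. C1qa had 17.1 FPKM in unnumbered WT, 0.974 in unnumbered KO and 0 in both numbered tables. C1qb had 15.2, 0.235, 0 and 0 in the same order. C1qc had 16.8, 0.385, 0 and 0. The 3 genes thus stood within a narrow band of each other in unnumbered WT, where they were chosen, and none was listed above 0 in a numbered table. Their differences in the unnumbered pair were -3.20, -3.72 and -3.69 on the log2(FPKM + 1) scale for C1qa, C1qb and C1qc. In FPKM, C1qa was 17.6-fold lower in KO, C1qb 64.7-fold and C1qc 43.8-fold.

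Tyrobp and Fcer1g encode small membrane adaptors, DAP12 and the Fc receptor gamma chain. Each carries an immunoreceptor tyrosine-based activation motif (ITAM) and passes on signals from receptors that have none of their own. Tyrobp (chromosome 7, 30413782 to 30417582) had 18.1 FPKM in unnumbered WT, the highest of the 9, and was listed at 0 in unnumbered KO and in both numbered tables. Fcer1g (chromosome 1, 171229572 to 171234349) had 11.6 in unnumbered WT, 0.251 in unnumbered KO, 0.0278 in numbered WT and 0.0223 in numbered KO. Both adaptors were thus high in 1 table of 4. Their differences in the unnumbered pair were -4.26 for Tyrobp and -3.33 for Fcer1g on the log2(FPKM + 1) scale, and Fcer1g was 46.0-fold lower in FPKM. Hcst, which encodes the adaptor DAP10 and whose gene body lies 0.13 kb from that of Tyrobp, was listed at 0 in all 4 tables.

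Csf1r and Cd14 encode surface receptors. Csf1r (chromosome 18, 61105572 to 61131139) binds the growth factors Csf1 and Il34, on which macrophages depend. It had 4.89 FPKM in unnumbered WT, 0.465 in unnumbered KO, 0.722 in numbered WT and 0.281 in numbered KO. Cd14 (chromosome 18, 36725064 to 36726815) presents bacterial lipopolysaccharide to Toll-like receptor 4. It had 4.03, 0.823, 1.67 and 2.97 FPKM in the same order. In FPKM as deposited, Csf1r differed by -2.01 in the unnumbered pair and by -0.43 in the numbered pair, where it was below 1 FPKM. The summed FPKM of the numbered tables was 964437 in WT and 417175 in KO. No direction is therefore read for Csf1r in that pair. Cd14 differed by -1.46 in the unnumbered pair and by 0.57 in the numbered pair, and its numbered KO level was closer to that of unnumbered WT than to that of unnumbered KO.

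Cd68 and Laptm5 encode membrane proteins of lysosomes and late endosomes, abundant in phagocytes for Cd68 and in blood cells for Laptm5. Cd68 (chromosome 11, 69664213 to 69666170) had 7.06 FPKM in unnumbered WT, 1.32 in unnumbered KO, 0.341 in numbered WT and 0.658 in numbered KO. Laptm5 (chromosome 4, 130912890 to 130936148) had 3.51, 0.111, 0 and 0.00433. Cd68 was the only one of the 9 above 1 FPKM in unnumbered KO. Its difference was -1.80 in the unnumbered pair and 0.31 in the numbered pair, where both values were below 1 FPKM. The difference of Laptm5 in the unnumbered pair was -2.02.

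In the unnumbered pair all 9 genes were at least 2-fold lower in KO, where 3.83% of all 11687 genes compared were lower by that much and 1.74% higher. This pair served to choose the genes, so nothing is read from the count. The KO level as a percentage of the WT level ran from 0 for Tyrobp to 20.4% for Cd14, with a median of 3.18%. C1qb at 1.55%, Fcer1g at 2.17%, C1qc at 2.28%, Laptm5 at 3.18% and C1qa at 5.70% formed the lower part. Csf1r at 9.51%, Cd68 at 18.7% and Cd14 at 20.4% formed the upper part. The genes of the upper part were also those with more than 0.1 FPKM in a numbered table.

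In the numbered pair only Cd14 passed the filter of 1 FPKM, and 0 of the 9 genes were at least 2-fold lower or higher. Over all 11055 genes compared, 15.7% were lower and 6.50% higher by that much. Rescaling the tables to this sum moved the median of all genes in this pair from 0.06 to 1.15 and Cd14 from 0.57 to 1.57, which made Cd14 at least 2-fold higher. Relative to the unscaled median its difference was 0.51. Between the WT tables, 8 of 9 genes were at least 2-fold lower in the numbered than in the unnumbered table, where 20.5% of 11720 genes were, and Cd14, at -0.91, was the exception. After rescaling, where the median of all genes between the WT tables moved as well, all 9 were. The genes were chosen for their level in unnumbered WT, and all but Cd14 passed through that table alone, so nothing is read from this count either. Both comparisons use that table and are not independent of each other.

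Further genes of macrophages, from a list of 31 surface and granule genes, were set beside the 9. In the unnumbered pair 24 passed the filter, of which 20 were at least 2-fold lower and 0 higher in KO. Over all genes compared these shares were 3.83% and 1.74%. The median difference was -1.68, against 0.01 over all genes. All 24 reached 1 FPKM in WT and 1 of them, Lyz2, in KO, so nearly all passed through WT alone, which fixes the direction, and neither the count nor the median is support. Lyz2, the macrophage lysozyme, had 90.2 FPKM in unnumbered WT, 8.30 in unnumbered KO, 0.155 in numbered WT and 0.0124 in numbered KO. Its reads may be shared with the near-identical Lyz1, which had 8.83, 0.697, 0 and 0.00188. Cd52, a small surface glycoprotein of leukocytes, had 15.2, 0.350, 0 and 0. The protease gene Ctss had 10.7, 0.686, 0 and 0.00917. Ptprc, which encodes the leukocyte antigen CD45, was far fainter at 1.08, 0.0751, 0 and 0.00748. Adgre1, listed under its older symbol Emr1 and encoding the antigen F4/80, had 3.25, 0.257, 0 and 0. Cd163, a receptor for haemoglobin complexes found on some macrophages, was listed at 0 in all 4 tables. Over the 24 genes at 1 FPKM or more in unnumbered WT, the KO level was between 0 and 27% of the WT level, with a median of 6.41%. In the numbered pair 1 of the 31 passed the filter, Coro1a, which encodes a leukocyte actin-binding protein, at 1.56 FPKM in WT and 0.0350 in KO.

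Partners of the ITAM adaptors included receptors of blood cells that were low outside unnumbered WT and a kinase gene that was not. Of 18 genes 7 passed in the unnumbered pair, 3 at least 2-fold lower and 0 higher, against 3.83% and 1.74% of all genes. The median of the 7 was -0.49. The 3 were receptors, and all 3 passed through unnumbered WT alone, which fixes their direction, so nothing is read from this count. Trem2, which signals through DAP12, had 2.99 FPKM in unnumbered WT, 0 in unnumbered KO, 0.677 in numbered WT and 0.115 in numbered KO. Fcgr3, an Fc receptor that pairs with the gamma chain, had 4.37, 0.311, 0 and 0.0262. Clec5a, a lectin receptor that uses DAP12, had 1.20, 0.0282, 0 and 0.0158. The kinase gene Syk had a higher value in KO than in WT in the unnumbered pair and a lower one in the numbered pair, with 0.990, 1.39, 1.94 and 1.5. Of the 18, 4 passed in the numbered pair, with 1 lower and 1 higher (the Src-family kinase gene Lyn, 1.21). Over all genes of that pair 15.7% were lower and 6.50% higher.

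Ligands and transcription factors of the lineage differed among themselves. Csf1, the main ligand of the receptor, was expressed in every table, with 63.6 FPKM in unnumbered WT, 97.8 in unnumbered KO, 242 in numbered WT and 99.4 in numbered KO. The other ligand, Il34, had 1.19, 1.65, 1.18 and 0.856. The ligands were thus present in all cultures, also where the receptor was at its lowest. Spi1, listed as Sfpi1, had 2.27, 0.209, 0 and 0.00394. Irf8, another factor of the monocyte lineage, had 1.003, 0.0872, 0 and 0.0191. Spi1 and Irf8 passed in the unnumbered pair through WT alone, which fixes their direction. Runx1, which is used in blood and in mesenchyme, was nearly level at 12.5, 12.2, 10.4 and 9.80. Of the 17 genes of this list 12 passed in the unnumbered pair, with 3 lower and 0 higher and a median of -0.82. Among all genes of that pair 3.83% were lower and 1.74% higher. The numbered pair had 10 that passed, with 4 lower and 0 higher, against 15.7% and 6.50% of all genes.

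Complement genes other than C1q included several that fibroblasts make. Of 18 genes 11 passed in the unnumbered pair, 5 lower and 0 higher, against 3.83% and 1.74% of all genes. The median of the 11 was -0.98. C1ra and C1s1, which encode the proteases that bind C1q, had 12.4 and 12.2 FPKM in unnumbered WT and 4.13 and 2.15 in unnumbered KO. Serping1, the inhibitor of C1, had 10.5 and 2.82. The KO level of these 3 genes was a larger share of the WT level than in the C1q genes, from 17.7% for C1s1 to 33.2% for C1ra. In the numbered tables C1ra had 4.56 FPKM in WT and 4.25 in KO, and C1s1 had 8.95 and 10.7, while C1q was listed at 0 there. Serping1 was below 1 FPKM there, at 0.328 in WT and 0.493 in KO. C1s1 is listed under the older name C1s. Of the 18, 10 passed in the numbered pair, 3 lower and 1 higher, against 15.7% and 6.50% of all genes.

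Partners of CD14 were spread more evenly over the tables. Of 16 genes 10 passed in the unnumbered pair, 1 lower and 0 higher, against 3.83% and 1.74% of all genes. The median of the 10 was -0.25. The one lower was Tlr13, an endosomal sensor of bacterial RNA, at 1.47 FPKM in WT and 0.0531 in KO. It passed through WT alone, which fixes its direction. Ly96, whose protein binds lipopolysaccharide in a complex with Toll-like receptor 4, had 7.0 FPKM in unnumbered WT and 8.02 in unnumbered KO. In numbered WT and numbered KO it had 9.75 and 8.97. Tlr4 had 6.31, 5.13, 1.81 and 2.48 in the same order. The numbered pair let 7 pass, 0 lower and 1 higher, against 15.7% and 6.50% of all genes. The 1 higher was the lipoprotein receptor Tlr2, at 0.104 in WT and 2.34 in KO, so it passed through KO alone.

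Lysosomal genes used by most cell types were set beside Cd68 and Laptm5. All 17 passed in the unnumbered pair, and 0 were at least 2-fold lower or higher, against 3.83% and 1.74% of all genes. The median of the 17 was -0.04. Lamp1 had 339 FPKM in WT and 356 in KO, and Laptm4a, a relative of Laptm5, 499 and 446. In the numbered pair 4 of the 17 were lower and 0 higher, against 15.7% and 6.50% of all genes. The low level of Cd68 and Laptm5 in unnumbered KO was not shared by this list. Both genes were chosen in this pair and the list was not, so nothing is read from that contrast.

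**Figure D2:**
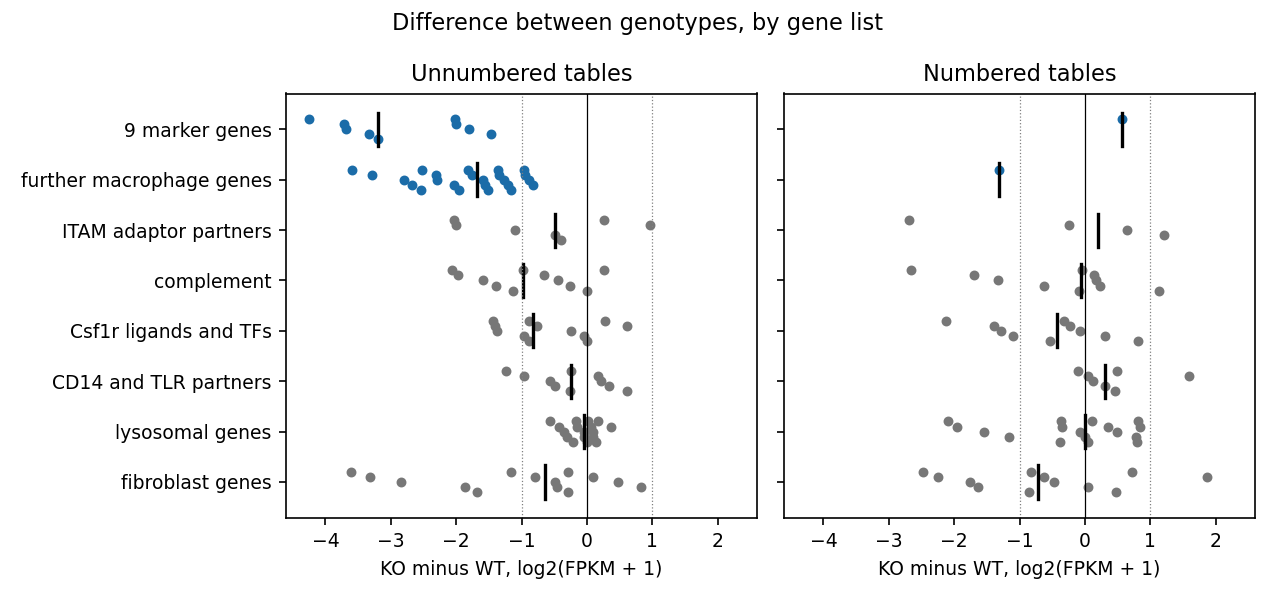
KO minus WT on the log2(FPKM + 1) scale (x axis) for the genes of 8 lists (y axis) that reached 1 FPKM in either genotype, in the unnumbered pair (left) and the numbered pair (right); each point is a gene, black bars are medians and dotted lines mark 2-fold. The 9 marker genes all lie at or below -1.46 on the left, and Cd14 at 0.57 is the single one on the right.

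Markers of other cell types were checked in the same tables. Of 12 T and NK cell genes and 8 B cell genes, 0 reached 1 FPKM in either unnumbered table. Over all genes 50.6% did in unnumbered WT and 49.5% in unnumbered KO. Of 11 neutrophil genes 10 were listed at 0 in unnumbered WT and 7 in unnumbered KO, against 33.9% and 34.0% of all genes. Cxcr2, which was above 0 in unnumbered WT, had 0.371 FPKM there and 1.01 in unnumbered KO. Mast cells and basophils also use the Fc receptor gamma chain. Among 10 of their genes 8 were listed at 0 in unnumbered WT, against 33.9% of all genes. Cpa3 and Fcer1a were at 0 in all tables, and Mcpt8 had 6.41 FPKM in unnumbered WT and 7.20 in unnumbered KO. Among genes of megakaryocytes Pf4, which macrophages can also express, had 5.60 FPKM in unnumbered WT, 0.310 in unnumbered KO and 0 in both numbered tables. Ppbp went the other way, with 8.15 in unnumbered WT and 47.7 in unnumbered KO. Of the osteoclast genes, which belong to a sister lineage of macrophages, Acp5 had 0.615 and 0.535 FPKM in the unnumbered tables and Calcr, Ocstamp and Atp6v0d2 were listed at 0 in both. Ctsk, a protease gene that osteoclasts share with fibroblasts, had 36.6 and 15.9. Of 12 endothelial genes 4 passed with 0 lower or higher, and of 10 epithelial genes 1 passed and was higher in KO. Of 10 neural genes 2 passed, and 1 of them was higher. These counts are of the unnumbered pair, where 3.83% of all genes were lower and 1.74% higher.

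Fibroblast genes were checked against the label. All 14 were at 1 FPKM or more in both unnumbered tables, and 12 and 11 of them in numbered WT and KO. Col1a1, a main fibrillar collagen gene, had 2527 FPKM in unnumbered WT and 1794 in unnumbered KO. Thy1, a surface marker of many fibroblasts, had 210 and 120 there but 0.141 and 0.100 in the numbered tables. In the unnumbered pair 6 of the 14 were at least 2-fold lower in KO and 0 higher, against 3.83% and 1.74% of all genes. Among the 6 were Dcn and Lum, matrix proteoglycan genes, and the median of the 14 was -0.65. The unnumbered WT and KO tables thus differed in fibroblast genes as well as in the macrophage genes, and the part of either in the other was not tested.

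The pattern of the 9 genes over the 4 tables was matched against all 12071 genes that reached 1 FPKM in at least 1 table. Each gene's log2(FPKM + 1) values were centred and scaled to unit length, and the distance was taken to the median profile of the 9. The nearest was Cd84, a leukocyte surface receptor, at a distance of 0.00471, with 1.80 FPKM in unnumbered WT and 0.0919 in unnumbered KO. Next came Ms4a6d, Fgl2, the fatty acid and scavenger receptor gene Cd36, Rgs1, Bmp3, Itgam, which encodes the integrin CD11b, Scube2, Tlr13 and Ptprc, the tenth at 0.0204. Cd84, Itgam, Tlr13 and Ptprc were also on the lists above, and the others, Bmp3 and Scube2 among them, were on none. Scaling to unit length leaves out the size of a difference. Fgl2, for example, had 1.05 FPKM in unnumbered WT, 0.476 in unnumbered KO, 0.438 in numbered WT and 0.441 in numbered KO. Among the 9 genes the distances ran from 0.00293 for C1qb to 0.829 for Cd14, so Cd14 was the least typical. This likeness rests on 4 values per gene, of which a single one is high.

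Promoter sequences were taken for the genes with an entry in RefSeq's promoter windows on GRCm38.p6, the assembly of mm10, which gave 5 of the 9 (C1qb, C1qc, Cd68, Fcer1g and Laptm5). Each window's 250 bases before the transcript start on which RefSeq set it were searched for GAGGAA, a core bound by PU.1 and other ETS factors, on both strands. It was found in 4 of the 5 windows, once in each, and in 23.3% of all 32851 windows of this length. C1qb, C1qc and Cd68 are shown 5′ to 3′ on the gene's strand, because these genes shared high RNA in unnumbered WT and differ in their chromatin below, and capitals mark GAGGAA or its reverse complement TTCCTC. Counted from that transcript start, the match begins 30 bases before it in C1qb, 38 in Laptm5, 193 in C1qc and 225 in Cd68. The start used by a window need not be the end of the gene body used for ChIP cover: all 250 bases of the Laptm5 window lie inside its gene body, which is why it is not shown, and 22 of those of C1qc do. The C1qb window is chr4:136886201-136886450 on the minus strand, that of C1qc is chr4:136892915-136893164 on the minus strand and that of Cd68 is chr11:69666171-69666420 on the minus strand.
C1qb: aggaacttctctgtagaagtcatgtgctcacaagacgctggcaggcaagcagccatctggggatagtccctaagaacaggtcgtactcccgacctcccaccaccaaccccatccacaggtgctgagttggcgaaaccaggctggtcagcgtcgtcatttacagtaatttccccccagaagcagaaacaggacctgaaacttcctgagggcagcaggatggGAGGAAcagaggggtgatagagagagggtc
C1qc: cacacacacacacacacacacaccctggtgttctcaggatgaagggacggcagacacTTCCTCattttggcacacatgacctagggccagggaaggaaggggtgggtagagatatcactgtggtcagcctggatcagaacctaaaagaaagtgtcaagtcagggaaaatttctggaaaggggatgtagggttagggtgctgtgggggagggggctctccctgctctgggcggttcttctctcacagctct
Cd68: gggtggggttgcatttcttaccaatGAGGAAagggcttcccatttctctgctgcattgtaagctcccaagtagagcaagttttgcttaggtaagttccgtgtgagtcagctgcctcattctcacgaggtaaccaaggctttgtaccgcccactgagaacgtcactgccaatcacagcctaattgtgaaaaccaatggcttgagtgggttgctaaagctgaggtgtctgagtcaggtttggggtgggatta
The window of Fcer1g held no match to these letters. TGTGGT, a core of RUNX sites, was found in C1qc alone and in 14% of all windows, and TATAAA in Laptm5 alone and in 12.4%; neither motif overlaps GAGGAA. The windows held 2 to 6 CG dinucleotides, against a median of 6 over all windows. A match is a description of letters and not a bound site.

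Chromatin over the 9 gene bodies was then read from the lists of called regions, on mm10. A gene was counted as covered when at least 0.5 of its body lay inside called regions, beside the same share over 21631 protein-coding genes. The genes fell into those under H3K27me3, which were Tyrobp, the C1q genes and Laptm5, and those that were not, which were Csf1r, Cd68, Cd14 and Fcer1g. The labels do not tie a ChIP library to the culture of an RNA sample, and whether macrophages were among the ChIP cells was not tested.

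H3K27me3 covered 5 of 9 genes in WT and the same number in KO, against 33.9% and 32.4% of all genes. In each of Tyrobp, C1qa, C1qb, C1qc and Laptm5 100% of the body was covered in both genotypes. The C1q genes share 1 region and are not independent, and it spanned 163 kb in WT (136817001 to 136980000, signal 56.3) and 139 kb in KO (136837001 to 136976000, signal 27.1). The region over Tyrobp spanned 159 kb in WT and 196 kb in KO, with signals of 39.4 and 33.6. That over Laptm5 was the same 1002 kb in both genotypes (130841001 to 131843000), with signals of 11.6 and 12.4. The signal is the authors' value per region and describes regions within a list, so no change is read from it. Csf1r had 31.3% of its body covered in WT, by an 8 kb region, and 0 in KO, and Cd68, Cd14 and Fcer1g had 0 in both. No gene differed by 0.5 or more, against 5.44% of all genes lower and 4.43% higher in KO. Of all genes at 1 FPKM or more in unnumbered WT 11.7% were covered by WT H3K27me3, against 61.6% of genes below 1 FPKM in all 4 tables. Of the 24 further macrophage genes at 1 FPKM or more in unnumbered WT, 15 were covered in WT and 14 in KO.

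H3K9me3, a mark of heterochromatin, covered 3 of 9 genes in WT and 2 in KO, against 19.5% and 25.3% of all genes. Tyrobp was fully covered in both, by a region of 43 kb in WT and 194 kb in KO. Laptm5 had 60.8% covered in both, from the same start at 130922001, inside a region of 881 kb in WT and 125 kb in KO. Around its gene start, 2 kb to either side, 0 was covered in both genotypes. C1qb had 96.7% covered in WT by a faint region of 15 kb with a signal of 0.800, and 0 in KO, where the nearest region was 588 kb away. It was the 1 gene of the 9 whose cover was lower by at least 0.5 in KO, as in 7.78% of all genes, and it was not covered in WT when a signal of at least 1 was asked for. No gene was higher by that much, against 13.1% of all genes. C1qa and C1qc were not covered in either genotype.

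H3.3-Flag covered 2 of 9 genes in both genotypes, against 21.3% of all genes in WT and 22.4% in KO. These were Cd68 and Cd14, each with 100% of its body inside a region. The region over Cd68 spanned 37 kb in WT and 35 kb in KO and also held Eif4a1, a translation initiation factor gene at 374 FPKM in unnumbered WT that lies 0.766 kb away, and Mpdu1 at 20.8. The region over Cd14 spanned 2 kb in WT (36725001 to 36727000, signal 86.0), with no other gene in it. In KO it spanned 45 kb with a signal of 2.92 and took in 7 protein-coding genes, among them Ndufa2, a respiratory chain gene. This KO region falls under the signal minimum of 3 tried as an alternative, but signals on this chromosome need not share a scale between the lists, so no change is read from that. Csf1r had the same 13.4% covered in both genotypes, at the end of its body with the lower coordinates. Fcer1g had 20.9% covered in WT, by a single kilobase (171233001 to 171234000), and 49.2% in KO, by a region of 19 kb. Around its gene start, 2 kb to either side, 25% was covered in WT and 100% in KO. Tyrobp, the C1q genes and Laptm5 had 0 in both genotypes. The region nearest to Tyrobp lay 1.42 kb away in WT and 132 kb away in KO. No gene differed in H3.3-Flag cover by 0.5 or more, against 2.35% of all genes lower and 2.59% higher in KO.

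H3.3-HA covered 1 of 9 genes in WT, Cd68, against 8.69% of all genes, and 2 in KO, Cd68 and Csf1r, against 27.1%. Cd68 was fully covered in both, by 23 kb in WT and 50 kb in KO. Csf1r went from 13.4% in WT to 100% in KO, where it lay in a region of 626 kb with a signal of 2.65 and 17 protein-coding genes. This region too falls under the minimum of 3, with the same limit. It was the 1 gene of the 9 higher by 0.5 or more, as in 21.1% of all genes, and 0 were lower, against 3.02%. Cd14, which was under H3.3-Flag, had 0 under H3.3-HA in both genotypes, with the nearest region 14.1 kb away in WT and 7.19 kb in KO.

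Total H3 regions are long, and they covered 5 of 9 genes in WT and 6 in KO, against 23.7% and 35.5% of all genes. The 5 were those under H3K27me3, inside regions of 710 kb for the C1q genes, 1000 kb for Tyrobp and 1070 kb for Laptm5 in WT. Csf1r was the sixth in KO, in a region of 890 kb, the 1 gene higher by 0.5 or more, as in 15.5% of all genes, and 0 were lower, against 3.74%. The genes under H3K27me3 thus also lay in H3 calls in both genotypes, and the part of H3 calls in their cover was not tested. PML regions covered 1 of 9 genes in WT, Laptm5, against 12.2% of all genes, and 0 in KO, against 1.38%. Laptm5 lay 100% inside a domain of 920 kb (130890001 to 131810000), with Matn1 and Ptpru, and cover was lower by 0.5 or more in KO in this 1 gene, as in 10.8% of all genes. The nearest PML region in WT was 772 kb from Tyrobp, 1556 kb from Fcer1g and 3091 kb from C1qa.

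**Figure D3:**
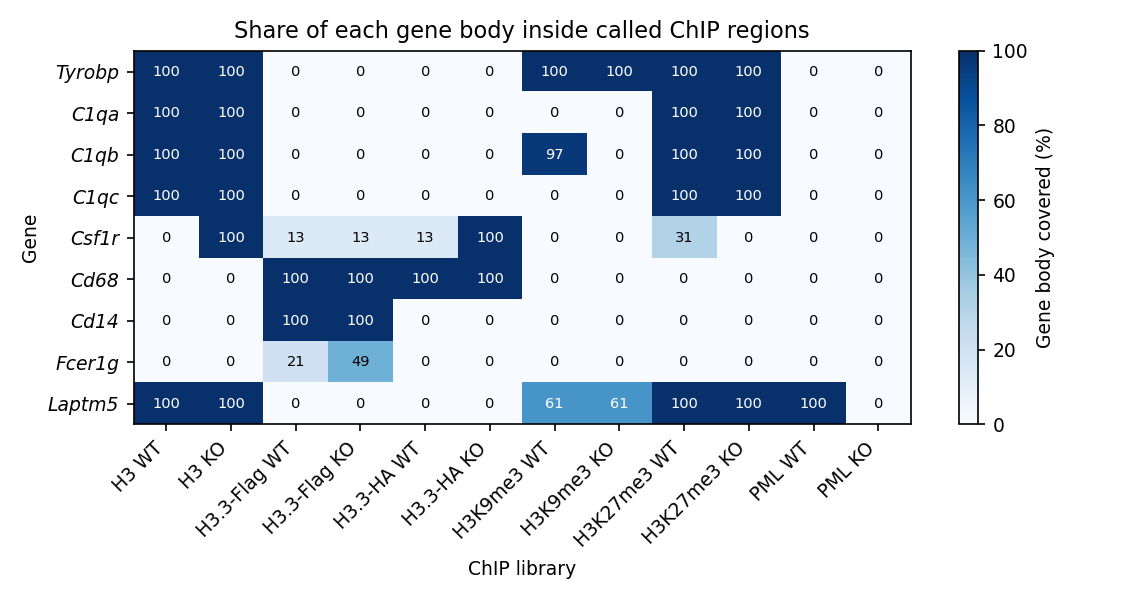
Percentage of each gene body (rows) that lay inside called regions of each of 12 ChIP libraries (columns), 1 library per cell column, with the value written in each cell. Tyrobp, C1qa, C1qb, C1qc and Laptm5 read 100 under H3K27me3 in both genotypes and 0 under H3.3, while Cd68 reads 100 under H3.3 and 0 under H3K27me3.

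None of the 9 genes had both some H3.3-Flag cover and its whole body under H3K27me3, in either genotype. Over all 21631 genes 4.80% had both in WT and 3.25% in KO, so having both was uncommon there too. H3.3-Flag cover without a fully covered body was found in 51.1% and 47.4% of all genes, and the reverse in 19.8% and 22.4%. A further 24.35% and 26.95% had neither, as did 0 of the 9 genes in either genotype. The reverse held for 5 of the 9. The cutoffs for H3.3-Flag and H3K27me3 were unlike here and gene length was not matched, so nothing is read from these shares. In WT Csf1r had 13.4% of its body under H3.3-Flag and 31.3% under H3K27me3, so it had some of both. Cd68, Cd14, Csf1r and Fcer1g had some H3.3-Flag cover in both genotypes, and Tyrobp, C1qa, C1qb, C1qc and Laptm5 had none. The 3 members with more than 0.1 FPKM in a numbered table, Csf1r, Cd68 and Cd14, were all in the first group. Fcer1g was in the first group with 0.0278 FPKM in numbered WT. Cd68 lies within 1 kb of an expressed gene, Eif4a1, which its H3.3-Flag regions also held. Csf1r lies within 1 kb of Hmgxb3, at 10.6 FPKM in unnumbered WT, but its H3.3-Flag regions did not reach that gene. The WT region over Csf1r held no other protein-coding gene. In KO the region also held Pdgfrb, at 87.7 FPKM in unnumbered WT. The part of these neighbours in the H3.3 cover was not tested, and the arrangement rests on 9 genes, 3 of which share a locus.

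**Figure D4:**
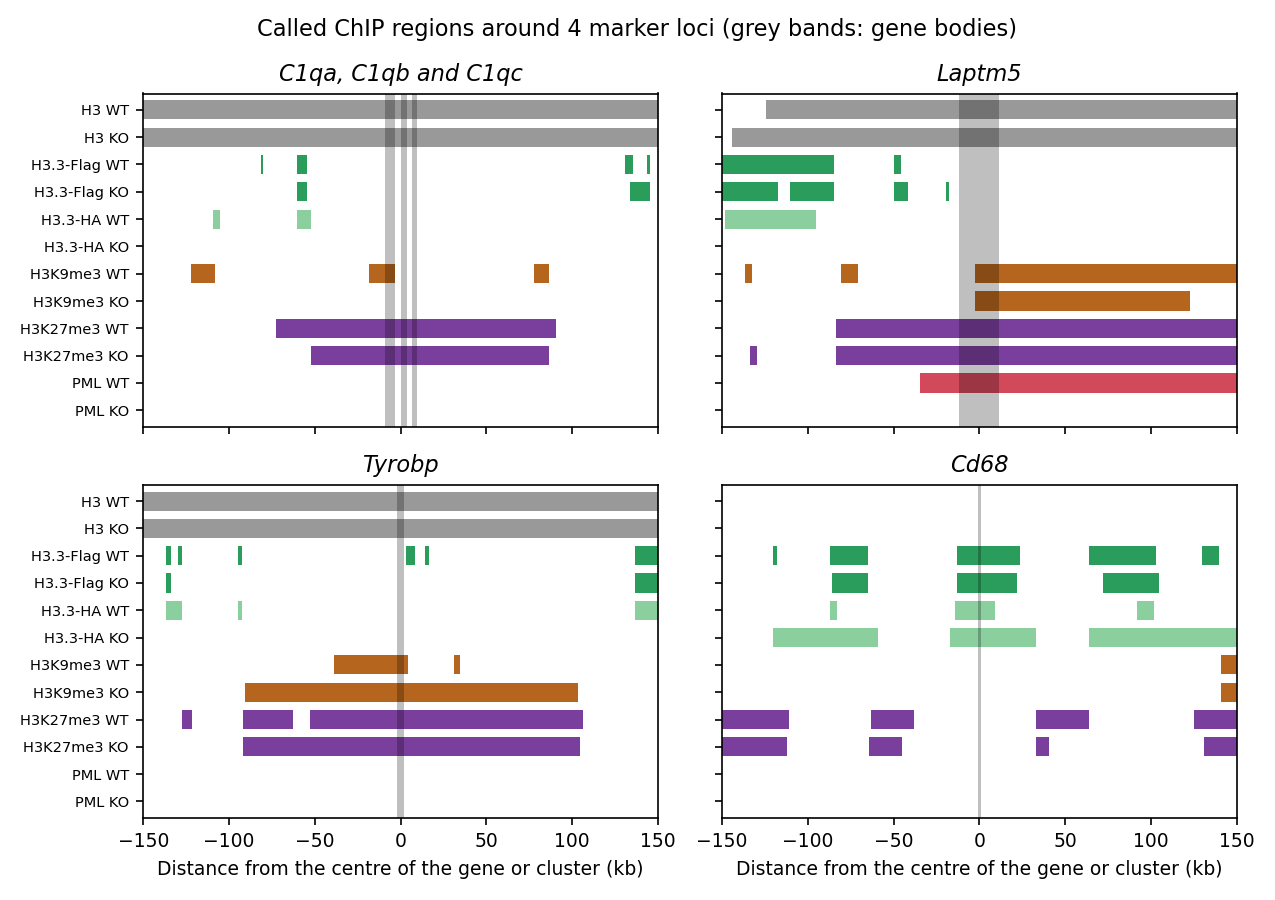
Called regions (bars) of the 12 ChIP libraries (rows) within 150 kb of the centre of the C1q cluster, Laptm5, Tyrobp and Cd68, against distance in kb (x axis); grey bands are the gene bodies. H3K27me3 bars (purple) span the first 3 loci in both genotypes, H3.3 bars (green) span Cd68, and the PML bar (red) appears at Laptm5 in WT only.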

How the data were processed

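RNA and ChIP of WT and KO fibroblasts came as 8 RNA samples in 4 tables and 12 ChIP libraries. The RNA tables deposited by the authors hold FPKM, and per the labels the 3 numbered replicates of a genotype went into 1 table. The submitters' processing notes list, with no order, Cuffdiff 2.2.1, Cufflinks 2.2.1, TopHat2 2.0.8b, Bowtie 1.0.0 and the build mm10. Each ChIP file is the authors' list of called regions, with a deposited signal and score per region for H3.3, H3K9me3 and H3K27me3 and a deposited score for H3 and PML. The region caller and the scale of these values were not given in the sources used here. Signal times region length in kb was whole, within 0.01, for at least 98.1% of regions on chromosomes 1 to 9, X and Y but for at most 30.2% on chromosomes 10 to 19, so signals of Cd68, Cd14 and Csf1r are not set beside those of the other genes.

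Names that occurred more than once were dropped, as were the 271 (unnumbered) or 267 (numbered) lines that gave more than 1 gene. Differences used log2(FPKM + 1) where a gene reached 1 FPKM in either genotype. List members were matched by symbol or by a single RefSeq synonym. Gene bodies came from RefSeq on GRCm38.p6, protein-coding on chromosomes 1 to 19 and X. Cover was computed in pandas 2.3.3 and numpy 2.4.6 under Python 3.11.15, and plots were made in matplotlib 3.10.9. The 2-fold call and the cover function were tested on simulated data. The named genes were the 9 members, genes of each list by level or 2-fold difference, and the 10 of nearest pattern, and any other gene was named after its values were seen. The members and lists were chosen with earlier results of these data known. Alternatives were another pseudocount, filter, scaling, signal minimum, flank and overlap. No adjusted p was computed. With no separate cultures in the values, single tables were compared. Some genes of the lists are counted but not reported here by name.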

Additional observations from a re-analysis of the deposited data

Results flagged for a closer look

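Cd14 stood out because the genotypes differed in opposite directions in the 2 pairs of tables. KO minus WT was -1.46 on the log2(FPKM + 1) scale in the unnumbered pair and 0.57 in the numbered pair. The difference between the pairs was not tested, since each rests on single tables.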

How the results depend on the processing

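No paired analysis was possible because the numbered replicates were deposited as 1 pooled column per genotype, and for the same reason no replicate could be left out in turn. A value was taken as moved when it changed by over 1.5 times. In the unnumbered pair all 9 genes stayed at least 2-fold lower with a pseudocount of 0.1, without a filter, after rescaling and after centring, and all 6 that passed a minimum of 5 FPKM did too. In the numbered pair the median of the members was 0 without a filter, over 9 genes. Rescaling the tables to a sum of 1000000 gave a median of 1.57 and a count of 1 gene at least 2-fold higher there, both from Cd14, and no member passed a minimum of 5 FPKM. Between the WT tables the median went from -3.61 to -6.51 with a pseudocount of 0.1. For H3.3-Flag, counting any overlap gave 4 genes in each genotype, 5 kb flanks gave 1 in WT, and a signal of at least 3 gave 1 in KO, which made 1 gene lower in KO. H3.3-HA counts were 2 in WT with any overlap and 1 in KO at a signal of at least 3, which left 0 genes higher in KO. These signal minimums turn on Cd14 and Csf1r on chromosome 18, where signals need not share a scale between lists. With a signal of at least 1 or 3, 0 genes were lower in KO for H3K9me3. Windows at the gene start could be made for 5 genes with a known strand. Over these 5, the H3K9me3 count went from 2 with gene bodies to 0 in WT and from 1 to 0 in KO. The H3.3-Flag count in KO went from 1 to 2, and the counts of the other libraries stayed the same. The depth of every library is unknown.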
